A study of Homo sapiens with 4 samples.

Results

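The vascular endothelial growth factor (VEGF) family was read by 33 probe sets for 9 genes, out of 41091 probe sets with a single gene symbol and 19775 genes on the array. The genes were the ligands VEGFA, VEGFB, VEGFC and PGF (8 probe sets), the receptor tyrosine kinases FLT1, KDR and FLT4 (10 probe sets) and the co-receptors NRP1 and NRP2 (15 probe sets), and every probe set that carried one of these symbols alone was taken. The cells were HepG2, a human liver cancer line that keeps many hepatocyte features, and total RNA was hybridised to U133 Plus 2.0 arrays of Affymetrix. To follow expression over time, 1 array each was made after 2, 6 and 12 h with APRIL at 200 ng/ml, and 1 from untreated cells at 0 h. APRIL is a soluble cytokine of the TNF ligand class. All cells had been without serum beforehand, for 24 h by the series' design text and overnight by the treatment protocol.

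VEGF ligands are secreted cystine-knot dimers that drive the growth and permeability of blood and lymph vessels. VEGFA binds FLT1 and KDR, and its signal for vessel growth runs mainly through KDR. PGF, placental growth factor, and VEGFB bind FLT1, whereas VEGFC binds FLT4 and drives lymphatic growth. The neuropilins NRP1 and NRP2 bind both VEGF ligands and class 3 semaphorins and present them to the kinase receptors or to plexins. In liver, hepatocytes are a source of VEGFA, and the receptors are best known from sinusoidal endothelial cells.

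Each deposited value is a log2 value relative to the median of its own probe set over the 4 arrays, so it shows how the arrays differ and not how abundant a transcript was. Because of this centring the middle 2 of the 4 values are always equal in size and opposite in sign. With 1 array per time there was no replicate error and no test. No untreated sample matched to the later times was used here, so time without serum and APRIL cannot be told apart. The spread of all single-symbol probe sets, as a robust SD of the log2 ratio to 0 h, was 0.19, 0.24 and 0.29 at 2, 6 and 12 h, and serves below as a yardstick. Whether HepG2 cells held the transcripts of the markers that define hepatocytes or endothelium could not be read from centred values. For the same reason a probe set with little spread may read a steady transcript or none at all.

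VEGFA was higher on the 12 h array than on the 0 h array, and PGF and NRP1 had single probe sets that were higher by more. At 12 h over 0 h the 4 ligand genes had a median log2 ratio of 0.50 and all were above 0. PGF counts here through the midpoint of 2 opposed probe sets, and with either alone the median was 0.72 (4 above 0) or 0.33 (3 above 0). The 3 kinase receptors had a median of 0.08, with 2 above 0, and the 2 co-receptors a median of 0.08, with 1 above 0. Single receptor probe sets lay well away from these medians, at 1.37 and 0.72 for NRP1 and NRP2 and at -0.65 for FLT1. Over all 19775 genes the median was 0.01 and 51.7% were above 0. VEGFA was the only member whose gene ratio, the median over its probe sets, reached 2-fold, which is 1 on the log2 scale. These medians describe 1 pair of arrays and no difference between ligands and receptors was tested.

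**Figure D1:**
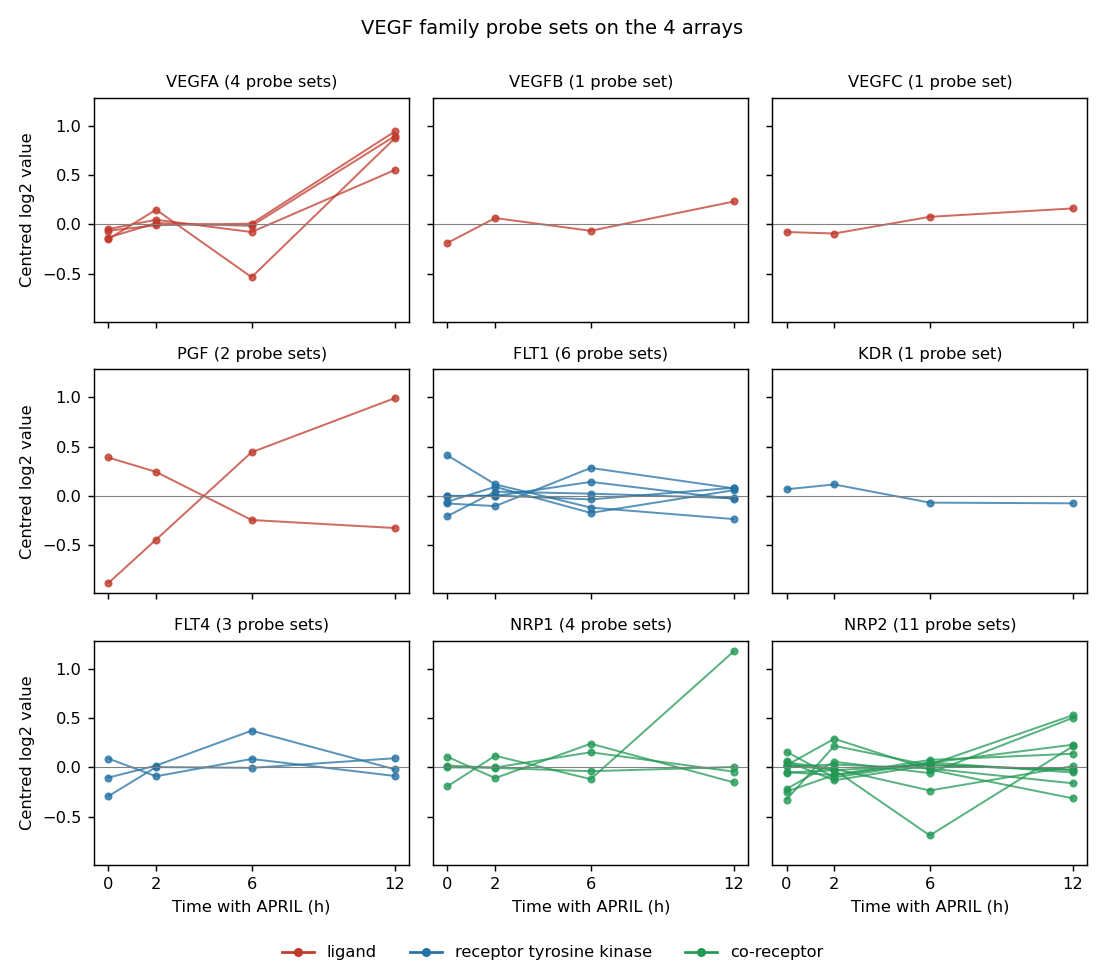
Centred log2 values of the 33 probe sets against hours with APRIL, 1 panel per gene and 1 line per probe set, coloured by role, with 1 array at each time. The 4 VEGFA lines share a high 12 h point, the 2 PGF lines cross, and a single NRP1 line stands at 1.18 at 12 h.

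At the level of probe sets, none of the 33 was at or past 2-fold at 2 h in either direction, where 0.0292% of all probe sets were past 2-fold higher and 0.0292% lower. At 6 h, 1 was past 2-fold higher and 0 were lower, against 0.246% and 0.937% of all probe sets. At 12 h, 5 were past 2-fold higher and 0 lower, against 1.56% and 1.57% of all probe sets. Those 5 were 3 of the 4 probe sets of VEGFA, 1 of the 2 of PGF and 1 of the 4 of NRP1. Probe sets of a gene share their transcripts, so the 3 of VEGFA are not separate genes. The members were chosen with earlier results of these data known, so these counts are no test of the family. At or past 1.5-fold there were 7 higher and 2 lower at 12 h, where 6.54% and 5.33% of all probe sets were this far out.

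The promoter sequence of 6 members, all but VEGFA, FLT4 and NRP1, was found in RefSeq tables of GRCh38.p14. Shown here are the 250 bases before the annotated start of PGF, of FLT1 and of VEGFB, a ligand that is read by a single probe set. PGF held both the highest and the lowest single 12 h reading of the family. FLT1 held the lowest single receptor reading, in 1 of its 6 probe sets. Its gene ratio at 12 h was 0.10, and that of KDR was lower, at -0.14. The patterns searched are those of factors known to act on the VEGFA gene, whose own ratios follow the account of the members. Capitals mark matches on either strand to the GC box GGGCGG, to the hypoxia response element cores ACGTG and GCGTG and to the EGR pattern GCGNGGGCG, where the GC box can overlap the EGR pattern. The PGF stretch is chr14:74955765-74956014 on the minus strand, that of VEGFB is chr11:64234334-64234583 on the plus strand, and that of FLT1 is chr13:28495129-28495378 on the minus strand.
PGF: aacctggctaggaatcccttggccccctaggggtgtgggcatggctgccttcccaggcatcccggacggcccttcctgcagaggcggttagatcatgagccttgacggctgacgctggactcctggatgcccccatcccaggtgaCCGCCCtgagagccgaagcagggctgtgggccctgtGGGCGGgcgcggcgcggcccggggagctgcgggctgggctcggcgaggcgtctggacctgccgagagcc
VEGFB: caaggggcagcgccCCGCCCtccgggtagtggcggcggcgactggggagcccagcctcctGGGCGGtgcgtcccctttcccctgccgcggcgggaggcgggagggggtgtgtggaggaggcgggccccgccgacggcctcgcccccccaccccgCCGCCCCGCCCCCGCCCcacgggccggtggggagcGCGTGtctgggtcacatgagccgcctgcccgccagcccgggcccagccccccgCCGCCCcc
FLT1: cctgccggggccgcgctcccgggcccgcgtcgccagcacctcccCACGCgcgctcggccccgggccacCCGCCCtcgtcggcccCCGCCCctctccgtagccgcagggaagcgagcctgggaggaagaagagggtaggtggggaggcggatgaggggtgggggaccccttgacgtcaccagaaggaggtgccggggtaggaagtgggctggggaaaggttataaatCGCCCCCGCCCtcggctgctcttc

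The 250 bases of VEGFB held 6 GC boxes, 1 GCGTG core and 1 EGR pattern. Those of FLT1 held 3 GC boxes, 1 GCGTG core and 1 EGR pattern, and those of PGF held 2 GC boxes and no EGR pattern. RefSeq has a second PGF start, and its 250 bases (chr14:74955598-74955847) held 3 GC boxes and 1 GCGTG core. The PGF stretches overlap, and 1 GC box is counted in both. Of all 35116 stretches of this length in the table, 42.6% held a GC box, 8.41% the EGR pattern, 32.2% the core GCGTG and 18.5% the core ACGTG. The core ACGTG and the AP-1 pattern TGANTCA (6.57% of all stretches) were not among the letters of any of the 7 stretches of members. The stretches are rich in G and C, at 82.8% for VEGFB, 73.2% for FLT1 and 70.8% for the PGF stretch printed above, against a median of 58.0% over the table. A match describes these letters only and says nothing about a factor on them.

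VEGFA, the principal vessel growth factor of the family, was higher on the 12 h array in all 4 of its probe sets, and before that its median stayed close to 0 h, with 1 lower reading at 6 h. Probe set 212171_x_at stood at -0.13 (0 h), 0.01 (2 h), -0.01 (6 h) and 0.89 (12 h). Probe set 210512_s_at stood at -0.06, -0.01, 0.01 and 0.94 at the same times. In both, the first 3 arrays lay within a narrow band and the 12 h array stood clear of them. Probe set 211527_x_at stood at -0.15 (0 h), 0.15 (2 h), -0.53 (6 h) and 0.87 (12 h), so that its 6 h array was the lowest. Probe set 210513_s_at stood at -0.05, 0.05, -0.08 and 0.55. Its 12 h array was again the highest, by a smaller margin.

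The VEGFA ratios of 12 h over 0 h were 1.03, 1.02, 1.005 and 0.60 in these probe sets (212171_x_at, 211527_x_at, 210512_s_at and 210513_s_at). The median of 1.01 (2.02-fold, SD 0.21 over 4 probe sets) was higher than that of 99.1% of all genes. The first 3 lay within 0.03 of the 2-fold line, whereas 210513_s_at was past 1.5-fold only. The mean over the 4 probe sets was 0.91, and the median was 0.95 when the average of the remaining arrays served as reference, both short of 2-fold. Among the 1393 genes read by 4 probe sets the median SD was 0.26, and 38.8% had a smaller SD than VEGFA, so its probe sets were about as close to each other as those of other genes. All 4 are of the kinds that can match several transcripts (names ending in _x_at or _s_at). Without such probe sets 18 remained in the family, of which 1, for NRP1, was past 2-fold at 12 h. The share of all probe sets under this filter is not given here. Which splice forms of VEGFA its 4 probe sets read is not given in the tables used here.

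The step from 6 h to 12 h held most of this difference. The VEGFA ratio of 12 h over 6 h had a median of 0.92 (SD 0.32 over 4 probe sets), with a range of 0.63 to 1.41, higher than for 99.0% of genes. At 2 h over 0 h the median was 0.12 (range 0.06 to 0.30, 4 of 4 above 0), and at 6 h over 0 h it was 0.02 (range -0.38 to 0.12, 2 of 4 above 0). Both medians are smaller than the yardsticks of 0.19 and 0.24.

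PGF, a ligand of FLT1, gave the widest swing in the family and the widest disagreement. Probe set 209652_s_at stood at -0.88 (0 h), -0.44 (2 h), 0.44 (6 h) and 0.99 (12 h). Each array was above the one before it, an order that 7.75% of all probe sets had. Its log2 ratio to 0 h was 0.44 at 2 h, 1.32 (2.50-fold) at 6 h and 1.87 (3.66-fold) at 12 h. Only 58 of the 41091 probe sets had a higher ratio at 12 h. It was the only member past 2-fold at 6 h.

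The other PGF probe set, 215179_x_at, ran the opposite way. It stood at 0.39 (0 h), 0.24 (2 h), -0.24 (6 h) and -0.32 (12 h), each array below the one before it, as in 4.67% of all probe sets. Its ratio to 0 h was -0.15 at 2 h, -0.63 at 6 h and -0.71 (1.64-fold lower) at 12 h, and 3.58% of all probe sets were lower at 12 h. The gene ratio of 0.58 at 12 h is therefore a midpoint that neither probe set showed. The SD of 1.83 between them was larger than in 99.8% of the 5015 genes read by 2 probe sets, where the median SD was 0.16. The tables used here give no transcript form for either, so the direction of PGF is not settled by these arrays.

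VEGFB and VEGFC were each read by a single probe set. VEGFB (203683_s_at), a FLT1 ligand best known from heart and muscle, stood at -0.19 (0 h), 0.06 (2 h), -0.06 (6 h) and 0.23 (12 h). Its ratio to 0 h was 0.25 at 2 h, 0.12 at 6 h and 0.42 at 12 h, and 91.2% of genes had a lower ratio at 12 h. VEGFC (209946_at), the lymphatic growth factor, stood at -0.08, -0.09, 0.08 and 0.16, with ratios of -0.01, 0.15 and 0.24. The highest value of both was on the 12 h array. VEGFC stayed within the yardstick of each time, and VEGFB was past it at 2 h and 12 h without reaching 1.5-fold.

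**Figure D2:**
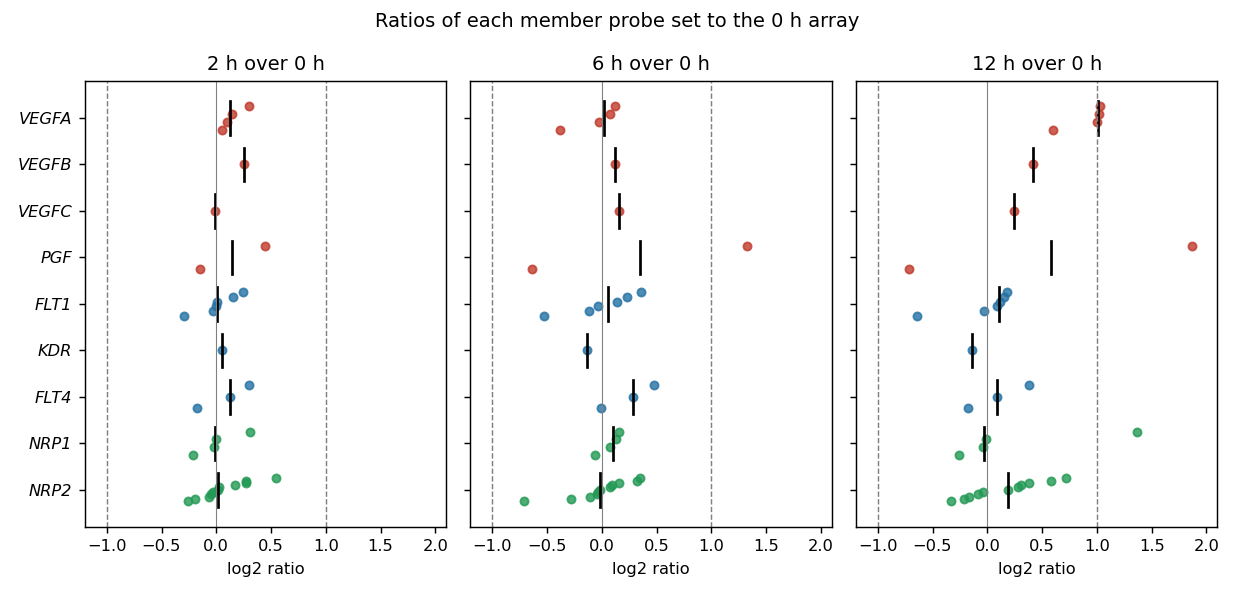
log2 ratios of each probe set to the 0 h array at 2, 6 and 12 h, 1 row per gene with ligands in red, kinase receptors in blue and co-receptors in green. Black bars are medians over probe sets and dashed lines mark 2-fold, which 0 probe sets reach at 2 h, 1 reaches at 6 h and 5 reach at 12 h.

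Among the kinase receptors no probe set was past 2-fold at any time. FLT1, a high-affinity receptor that also exists as a soluble trap for VEGFA, had 6 probe sets with a median ratio of 0.10 at 12 h (SD 0.31), 4 above 0. Of these, 5 lay between -0.03 and 0.18. The remaining one, 204406_at, stood at 0.41, 0.12, -0.12 and -0.23 at 0, 2, 6 and 12 h. Its ratio to 0 h was -0.29, -0.53 and -0.65 (1.56-fold lower) at the 3 times, and 4.48% of all probe sets were lower at 12 h. No other FLT1 probe set showed this order of arrays.

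KDR, the main signalling receptor for VEGFA, stood at 0.07 (0 h), 0.12 (2 h), -0.07 (6 h) and -0.07 (12 h) in its single probe set 203934_at. Its ratios of 0.05, -0.14 and -0.14 to 0 h were within the yardstick. FLT4, the VEGFC receptor, had 3 probe sets. Their median ratios to 0 h were 0.12, 0.29 and 0.08 at 2, 6 and 12 h, the last with a SD of 0.28. Probe set 210316_at was at 0.30, 0.29 and 0.38, and 234379_at at 0.12, 0.47 and 0.08. Probe set 229902_at was at -0.18, -0.004 and -0.18, so the probe sets of FLT4 did not share a direction at any of the 3 times.

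Of the co-receptors, NRP1 had a single high reading. Probe set 212298_at stood at -0.19 (0 h), 0.12 (2 h), -0.12 (6 h) and 1.18 (12 h). Its ratio of 12 h over 0 h was 1.37 (2.58-fold), with 211 of the 41091 probe sets higher, and its ratio of 12 h over 6 h was 1.30. The 12 h array stood apart from the other 3, as in VEGFA. The remaining 3 NRP1 probe sets had ratios of -0.01 (1561365_at), -0.04 (210510_s_at) and -0.26 (210615_at) at 12 h. The gene ratio was thus -0.03, with a SD of 0.74 that was larger than in 97.4% of the 1393 genes read by 4 probe sets. Unlike the VEGFA and PGF readings past 2-fold, the name of 212298_at carries no mark of matching several transcripts.

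NRP2, the neuropilin most associated with lymphatic vessels, was read by 11 probe sets. Their median ratios to 0 h were 0.02, -0.02 and 0.19 at 2, 6 and 12 h, the last with a SD of 0.34. At 12 h 6 were above 0 and 5 below. The highest was 214632_at, which stood at -0.22 (0 h), 0.06 (2 h), -0.06 (6 h) and 0.50 (12 h), a ratio of 0.72. Next came 225566_at, which stood at -0.05, -0.03, 0.03 and 0.53, a ratio of 0.58. In both the 12 h array was the highest. The lowest at 12 h was 223510_at, at -0.34. At 6 h, 222877_at was at -0.71 while the other 10 lay between -0.29 and 0.35. Among the other 8 genes with 11 probe sets the SD ran from 0.25 to 0.49.

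The 12 h array was the highest of the 4 for 15 of the 33 probe sets, and for 29.6% of all single-symbol probe sets. The 0 h array was the lowest for 12, and for 26.8% of all. By role, 7 of 8 ligand probe sets were above 0 at 12 h over 0 h, as were 6 of 10 of the kinase receptors and 7 of 15 of the co-receptors. Over all probe sets 51.4% were above 0. The SD of the 12 h ratios was 0.55 over the family's 33 probe sets and 0.41 over all 41091, and the family's extremes were the 2 probe sets of PGF, at 1.87 and -0.71.

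**Figure D3:**
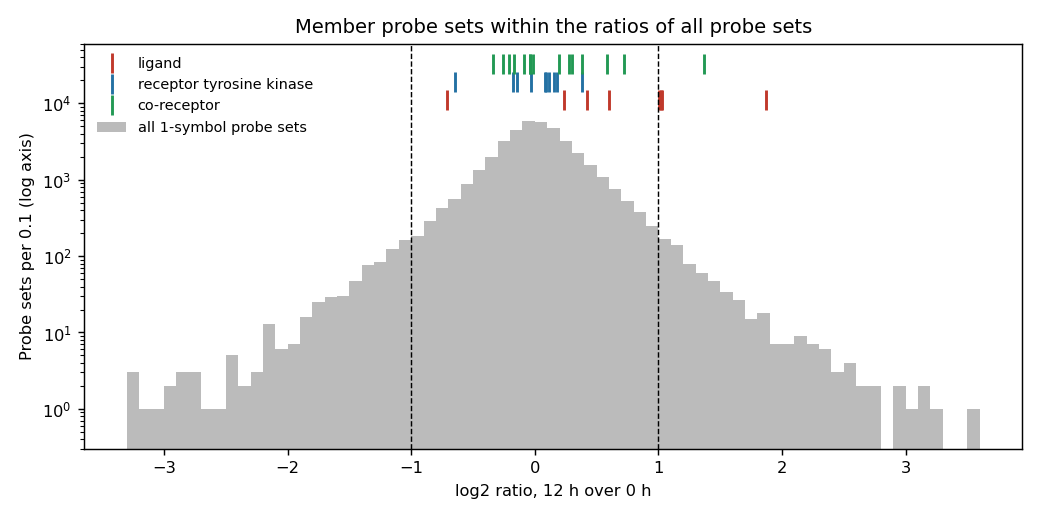
Histogram of the log2 ratio of 12 h over 0 h for 41091 probe sets on a logarithmic axis, with tick marks for the 33 family members by role. Dashed lines mark 2-fold, and the 5 member readings beyond it are 4 ligand marks and 1 co-receptor mark.

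The time course of VEGFA was set beside those of other genes by the distance between their 3 gene ratios to 0 h. Among 4516 genes with at least 2 probe sets of 1 sign at 12 h, the nearest was MOSPD1, with ratios of 0.15, 0.07 and 0.997 and a distance of 0.062. It was followed by ZNF853, a zinc-finger gene, HOMER3, a scaffold protein, ARHGAP32 and CREB5, a transcription factor of the CREB/ATF class, at distances of 0.070, 0.076, 0.082 and 0.11. Their 12 h ratios ran from 0.94 to 1.02, and the probe sets of ZNF853 (SD 0.57) and CREB5 (SD 0.54) were far apart. Within the family VEGFB lay at a distance of 0.62, with 6.57% of all genes nearer, and KDR at 1.17. PGF lay at 0.54 by the midpoint of its probe sets, but at 1.59 and 1.87 by each of them alone. The 3 ratios share the 0 h array, and nearness in them says nothing of function or control.

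Genes that act on the VEGFA gene or around the ligands, and markers of endothelium and hepatocytes, were read from 10 lists. They hold 132 genes, and 124 had a single-symbol probe set. The remaining 8 are not analysed here. At 12 h over 0 h, 8 of the 124 genes were past 2-fold higher and 1 lower, against 0.946% and 0.986% of all genes. The lists were chosen with earlier results of these data known, so these counts are no test of the lists against all genes. Without _x_at and _s_at probe sets 98 of the genes had a value, with 4 past 2-fold higher and 0 lower. The share of all genes under this filter is not given here. At 2 h none was past 2-fold, against 0.0354% higher and 0.0101% lower of all genes. At 6 h 1 was lower and 0 were higher, against 0.283% and 0.101%.

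Transcription factors of the VEGFA gene and the oxygen-sensing enzymes upstream of them had a median ratio of 0.23 at 12 h over 18 genes, 15 above 0, with 2 past 2-fold. These were EGR1, an immediate-early factor that binds GC-rich sites, at 2.91 (SD 0.59 over 3 probe sets), and JUN, an AP-1 subunit, at 1.42 (SD 0.66 over 4). STAT3 followed at 0.68 (SD 0.50 over 4, 3 above 0). As the list pools transcription factors with genes that restrain some of them, the count above 0 gives no single direction for VEGFA. At 6 h EGR1 was at 0.22 and JUN at 0.29, so the large EGR1 and JUN ratios and that of VEGFA appeared on the same array. No relation between them was tested.

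The 10 genes that act on VEGFA mRNA had a median of 0.03 at 12 h, 5 above and 5 below 0, and none was past 2-fold. ZFP36, which binds AU-rich mRNA and speeds its decay, was at 0.31, 0.59 and 0.87 at 2, 6 and 12 h in 1 probe set. Its relative ZFP36L2 was at 0.61 at 12 h (SD 0.39 over 4). SRSF6, a splicing factor that acts on the last exon of VEGFA, was at -0.97 at 6 h (SD 0.57 over 2) and -0.68 at 12 h (SD 0.45).

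Proteases and matrix proteins that process or hold the ligands had a median of 0.00 at 12 h over 13 genes, 7 above 0, with 2 past 2-fold. PLAU, the urokinase that activates plasminogen, was at 1.51 (SD 0.32 over 2 probe sets). PCSK5, a proprotein convertase able to cleave VEGFC, was at 1.12 (SD 0.32 over 3), and the convertase FURIN was at 0.77 in 1 probe set. The 12 semaphorins and plexins that pair with neuropilins had a median of 0.13, 9 above 0, and none was past 2-fold. SEMA3G was at 0.41, PLXNA2 at 0.26 (SD 0.39 over 3) and SEMA3B at 0.20.

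Downstream of the receptors, 21 kinases, adaptors, phosphatases and other signalling genes had a median of -0.03, 10 above 0 and none past 2-fold. SHB, an adaptor of KDR, was at 0.80 (SD 0.29 over 4 probe sets), AKT1 at 0.69 and the ERK pathway kinase MAP2K2 at 0.63 (SD 0.33 over 3). The 4 PDGF ligands, relatives of the VEGF family, had a median of -0.09 with 1 above 0, PDGFC at 0.49 (SD 0.32 over 2). PDGFA was at -0.28 (SD 0.31 over 2) and PDGFD at -0.13. At 6 h PDGFA was at -0.63 (SD 0.16).

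Other factors that promote vessel growth had a median of 0.21 over 15 genes, 10 above 0, with 4 past 2-fold at 12 h. CXCL8, a chemokine that also acts on endothelium, was at 2.56 (SD 0.23 over 2 probe sets). EDN1, the vasoconstrictor endothelin, was at 2.29 with a SD of 1.85, as its 3 probe sets ran from -0.12 to 3.52. HBEGF, a ligand of the EGF receptor, was at 1.28 (SD 1.20 over 4) and the ephrin EFNA1 at 1.04 in 1 probe set. The 10 inhibitors of vessel growth had a median of 0.12, 6 above 0 and none past 2-fold. THBS1, thrombospondin, was at 0.66 (SD 0.60 over 7 probe sets, 5 above 0), HRG at 0.49 (SD 0.57 over 2) and THBS2 at 0.25.

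**Figure D4:**
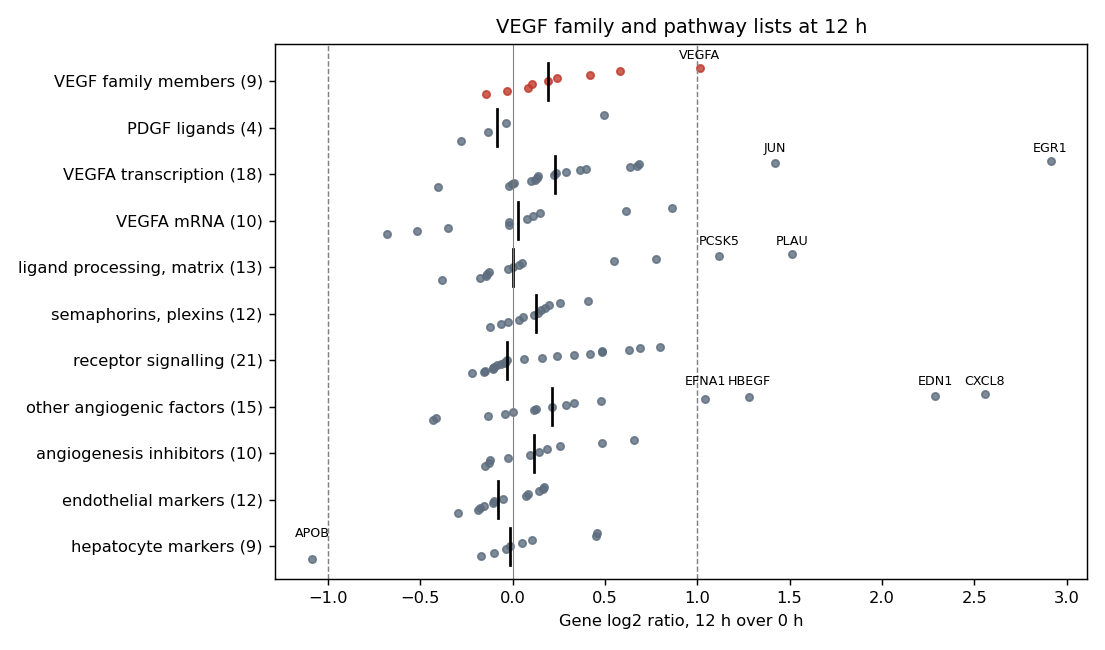
Gene log2 ratios of 12 h over 0 h for the 9 VEGF family genes (top row, red) and 10 lists of related and marker genes, with the number read in brackets. Each point is the median over a gene's probe sets, black bars are list medians, dashed lines mark 2-fold, and the genes past it are named.

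Markers of endothelium, the cell type in which the VEGF receptors are best known, had a median of -0.08 at 12 h over 12 genes, 5 above 0, from -0.30 to 0.17. PECAM1 was at -0.30 (SD 0.57 over 5 probe sets), ROBO4 at -0.19 and VWF at -0.18 (SD 0.44 over 2). The 9 hepatocyte markers had a median of -0.02, 4 above 0. TTR was at 0.46, FGB at 0.45 (SD 0.27 over 2) and APOB at -1.08, where its 2 probe sets lay far apart (SD 1.40). At 6 h APOB was at -1.60 (SD 1.975), and at both times it was the only listed gene past 2-fold lower.

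The control RNAs added at hybridisation, the spike-ins, bear on the sign of the small 12 h ratios. Their 18 probe sets had a median ratio of -0.35 at 12 h, with a range of -0.47 to -0.21, while the median of all genes was at 0.01. Centred on them, every 12 h ratio is 0.35 higher, VEGFA is at 1.37, and KDR and NRP1 turn from below to above 0, at 0.21 and 0.32. FLT1 is then at 0.45, FLT4 at 0.44 and NRP2 at 0.55. All 12 h ratios given above are relative to the arrays as deposited. The part of this shift in the results was not tested.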

How the data were processed

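Total RNA of 4 HepG2 samples, 1 array per time, was measured. The deposited table holds log2 values of 54675 probe sets made by the authors with RMA, per the submitters' processing notes, with no version given. Every probe set has a median of 0 across the arrays (within 1e-06), so no expression level remains. Neither the log base nor the direction is stated. Base 2, the scale of RMA, was assumed, as was that higher values mean more transcript. Precision is limited by having only 4 arrays.

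Symbols came from the platform annotation, and matching them to RefSeq GRCh38.p14 names changed none. Only probe sets with exactly 1 symbol were used. A gene's log2 ratio between 2 arrays is the median over its probe sets, and the threshold is 2-fold. Computation used Python 3.11.15, pandas 2.3.3 and numpy 2.4.6 and was tested on simulated data.

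All 9 members are named with their probe sets, and the 3 genes of each list with the largest 12 h ratio in absolute size, any past 2-fold at any time, and the 5 genes nearest to VEGFA. The members and lists were chosen with earlier results of these data known. Alternatives were the mean or the widest-ranging probe set per gene, leaving out _x_at and _s_at probe sets, centring on array medians or spike-ins, the mean of the other 3 arrays as reference, and thresholds of 1.5-fold and 3-fold. Each PGF probe set alone was an alternative chosen after seeing the data.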

Additional observations from a re-analysis of the deposited data

How the results depend on the processing

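VEGFA at 12 h over 0 h ranged from 0.91 to 1.37 over the settings that gave it a value, and was short of 2-fold with the mean over probe sets (0.91) and with the mean of the other 3 arrays as reference (0.95). Without _x_at and _s_at probe sets, VEGFA, VEGFB and PGF have no value. Of 153 alternative values of single members, 120 moved by less than 0.163, the robust SD of all genes between 2 h and 0 h, and 30 changed sign, 8 of them at 12 h (FLT1 under 3 settings, NRP1 under 3, KDR and FLT4 under 1 each). VEGFA at 12 h, the only member gene past 2-fold, kept its sign under each setting that gave it a value. All 4 of its probe sets were above 0 and highest on the 12 h array, so its kept sign adds no support. With the widest-ranging probe set per gene, NRP1 was at 1.37, PGF at 1.87 and FLT1 at -0.65 at 12 h. This setting picks the probe set by its range over these same arrays, so large ratios come with the choice. The median of the members at 12 h was 0.19, against 0.55 when centred on the spike-ins, 0.03 without _x_at and _s_at probe sets and 0.08 with the mean of the other arrays as reference. The ligand median of 0.50 was 0.72 or 0.33 with PGF from 209652_s_at or 215179_x_at alone, chosen after seeing the data. Of member probe sets past 2-fold higher at 12 h, 5 became 1 at 3-fold, 1 without _x_at and _s_at probe sets (NRP1) and 3 against the mean of the other arrays (1 each of VEGFA, PGF and NRP1); at 6 h, 1 became 0 under each of these 3 settings. At 1.5-fold, 2 were lower at 6 h and 2 at 12 h, where 1605 and 2190 of all 41091 probe sets were this low. Of all probe sets, 121 were at or past 3-fold higher at 12 h and 8 at 6 h. Of the 124 listed genes, 8 past 2-fold higher at 12 h became 18 at 1.5-fold, 15 centred on the spike-ins and 4 (of 98 genes) without _x_at and _s_at probe sets, and 0 at 6 h became 2 at 1.5-fold. Of those lower, 1 at 12 h became 2 at 1.5-fold, 0 centred on the spike-ins, against the mean of the other arrays or without _x_at and _s_at probe sets, and 3 with the widest-ranging probe set. At 6 h, 1 became 3, 2 and 3 at 1.5-fold, on the spike-ins and with the widest-ranging probe set, and 0 without _x_at and _s_at probe sets, and at 2 h, 0 became 1 at 1.5-fold, against the other arrays and with the widest-ranging probe set. Of all 19775 genes, 881 were at or past 1.5-fold higher and 731 lower at 12 h, 227 and 324 at 6 h, and 68 lower at 2 h. Counts over all genes under the other settings are not given here. Some of these changes follow from the settings themselves. Leaving out probe sets leaves fewer to count, and a lower or higher threshold can only raise or lower a count. Centring on the spike-ins moves every 12 h ratio up by 0.35. The cause of the other changes between settings was not tested. No paired analysis was possible because each time has 1 array and no test was made.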
